A study of Mus musculus with 6 samples.

Results

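*Foxn1* and 7 other regulators of the third pharyngeal pouch and of thymic epithelial specification, *Pax1*, *Pax9*, *Six4*, *Eya1*, *Hoxa3*, *Tbx1* and *Trp63*, were followed through 6 libraries of cortical thymic epithelial cells (cTEC). They are 8 of the 39179 genes in the count table and were picked by name for their known place in the pouch. All 8 were found in the table, and 7 of them had enough counts to be tested, the exception being *Tbx1*. Each of 3 experiments, A, B and C, gave 1 library of Cxcl12DsRed- cTEC and 1 of Cxcl12DsRed+ cTEC, sorted from untreated Cxcl12::DsRed mice aged 10 weeks on a C57BL/6 background. In these knock-in reporter mice the red protein DsRed marks cells that express *Cxcl12*, a chemokine gene, and both subsets carry the reporter and were gated as CD45- EpCAM1+ UEA1- Ly51+ cells. *Cxcl12* is itself known as a target of the FOXN1 protein, so the gate that separates the subsets is not independent of *Foxn1*. The comparison asks how the 2 subsets differ in RNA, and the differences given here are those of Cxcl12DsRed- cTEC relative to Cxcl12DsRed+ cTEC.

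The thymus grows from the endoderm of the third pharyngeal pouch, an outpocketing of the embryonic foregut that also gives rise to the parathyroid. HOXA3, the paired box proteins PAX1 and PAX9, and the partners EYA1, a phosphatase and co-activator, and SIX4, a homeobox protein, act in the patterning and outgrowth of this pouch. FOXN1, a forkhead protein lost in nude mice, then drives the differentiation of thymic epithelium, in the adult as well as in the embryo. TBX1, a T-box protein, acts in the forming pharyngeal pouches and becomes restricted to the parathyroid side of the third pouch. p63, the product of *Trp63*, maintains the basal and progenitor cells of stratified epithelia, the thymic epithelium included.

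The stretches just upstream of *Foxn1*, *Pax1* and *Pax9* are shown because these genes had the smallest p among the members and did not all stand on the same side. Each holds 250 bases before the RefSeq start of the gene on its own strand in GRCm38.p6. They lie at chr11:78386609-78386858 (minus strand) for *Foxn1*, chr2:147364744-147364993 (plus strand) for *Pax1* and chr12:56695221-56695470 (plus strand) for *Pax9*. Those of *Pax1* and *Pax9* lie within the gene spans of the annotation used, given below, which begin before the RefSeq start. Capitals mark the letters GACGC, the core of the sequence that FOXN1 is known to bind, searched for on both strands.
Foxn1 promoter: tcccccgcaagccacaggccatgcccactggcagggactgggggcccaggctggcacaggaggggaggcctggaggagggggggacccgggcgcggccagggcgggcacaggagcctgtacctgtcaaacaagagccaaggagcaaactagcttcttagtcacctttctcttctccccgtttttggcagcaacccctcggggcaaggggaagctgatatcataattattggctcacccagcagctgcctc
Pax1 promoter: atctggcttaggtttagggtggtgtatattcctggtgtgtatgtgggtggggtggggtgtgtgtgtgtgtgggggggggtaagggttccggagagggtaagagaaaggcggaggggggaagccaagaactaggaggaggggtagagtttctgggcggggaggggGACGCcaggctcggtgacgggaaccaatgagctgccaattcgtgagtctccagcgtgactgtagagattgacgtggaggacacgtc
Pax9 promoter: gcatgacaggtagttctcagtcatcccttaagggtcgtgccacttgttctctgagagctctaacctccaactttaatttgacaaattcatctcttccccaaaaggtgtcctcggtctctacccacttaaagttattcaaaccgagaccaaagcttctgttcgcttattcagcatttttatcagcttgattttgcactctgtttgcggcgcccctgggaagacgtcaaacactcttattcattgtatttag
GACGC was found 1 time upstream of *Pax1* and 0 times upstream of *Foxn1* and of *Pax9*. Among all 32851 upstream stretches of this length in the table, 7423 (22.6%) held it at least once, so a single match is a common event. The share of G and C was 63.2% upstream of *Foxn1*, 58.8% upstream of *Pax1* and 43.6% upstream of *Pax9*, beside a median of 52.4% over all stretches. Of the 8 genes, 6 had an entry in that table, and *Eya1* and *Trp63* had none.

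Depth was 34574900 to 51042679 counts in genes per library, and the DsRed transcript stood at 17.6 to 27.8 CPM in Cxcl12DsRed- cTEC and at 860 to 2059 CPM in Cxcl12DsRed+ cTEC (CPM, counts relative to the scaled library size). The 13 cTEC identity genes summed to 2652 to 3269 CPM in Cxcl12DsRed- cTEC and to 10615 to 19030 CPM in Cxcl12DsRed+ cTEC. Markers of some other cell types differed with the subsets, while other sums overlapped. The 12 markers of medullary thymic epithelial cells (mTEC) summed to 7222 to 11637 CPM in Cxcl12DsRed- cTEC and to 3194 to 13405 CPM in Cxcl12DsRed+ cTEC. Of these 12, 4 were higher in every Cxcl12DsRed- library, as were 9.73% of all genes tested. Their means in Cxcl12DsRed- and Cxcl12DsRed+ cTEC were 309 and 2.03 CPM for *Cldn3* and 201 and 1.48 CPM for *Cldn4*. They were 138 and 3.95 CPM for *Spib* and 7.82 and 0.0063 CPM for *Cd80*. Only *Cldn3* passed edgeR's quasi-likelihood test (adjusted p = 0.0376). Of the 12, 9 had a positive and 3 a negative log2 fold change. The sum overlapped, as did its most abundant genes, *Ccl21a*, *Krt5* and *Krt14*. Sums of the 10 pericyte and smooth muscle markers (791 to 1052 and 1031 to 1811 CPM) and of the 14 thymocyte markers (60.1 to 121 and 45.1 to 372 CPM) overlapped too. The 20 tuft cell markers summed to 862 to 4834 CPM in Cxcl12DsRed- cTEC and to 94.3 to 153 CPM in Cxcl12DsRed+ cTEC. Of the 20, 17 were higher in every Cxcl12DsRed- library, as were 9.73% of all genes tested. The 20 endothelial markers summed to 187 to 232 CPM in Cxcl12DsRed- cTEC and to 1122 to 8218 CPM in Cxcl12DsRed+ cTEC. Of the 20, 17 were lower in every Cxcl12DsRed- library, as were 9.32% of all genes tested. The 12 fibroblast markers summed to 3799 to 5272 CPM in Cxcl12DsRed- cTEC and to 1223 to 2010 CPM in Cxcl12DsRed+ cTEC. Only 1 of the 12, *Dcn*, was higher in every Cxcl12DsRed- library, though 11 had a positive log2 fold change. *Dcn* alone was at 3469, 3092 and 3118 CPM in Cxcl12DsRed- cTEC and at 1491, 1512 and 633 CPM in Cxcl12DsRed+ cTEC. The Cxcl12DsRed+ library of experiment C stood apart, with the endothelial sum of 8218 CPM and the lowest scaling factor from *Epcam*, *Krt8*, *Krt18* and *Cdh1*, 0.596. The log2 fold changes of *Six4* and *Trp63* are therefore also given without it. For the other members tested, the ranges over alternatives given at the end include fits without it. The part of these cells in the results was not tested.

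*Foxn1* RNA was present in both subsets and stood lower in every Cxcl12DsRed- library. *Foxn1* (ENSMUSG00000002057; GRCm38, chr11:78357577-78386558, minus strand) was at 83.0, 135 and 53.8 CPM in Cxcl12DsRed- cTEC of experiments A, B and C, and at 291, 276 and 156 CPM in Cxcl12DsRed+ cTEC. The highest Cxcl12DsRed- library lay below the lowest Cxcl12DsRed+ library, and the lowest value, 53.8 CPM, rested on 2187 counts. The means were 90.7 ± 41.2 CPM and 241 ± 74.5 CPM (SD, n = 3 each). The log2 fold change was −1.41 (SE 0.40) and the adjusted p was 0.189 in edgeR's quasi-likelihood test, so *Foxn1* did not pass the threshold of 0.05 over the 15576 genes tested. It was lower in 3 of 3 experiments, by log2 ratios of −1.81, −1.03 and −1.53. The exact two-sided permutation test gave p = 0.1 over the libraries and p = 0.25 within the experiments, the smallest that each design allows. The call for *Foxn1* turned on the test: adjusted p = 0.0318 with edgeR's likelihood ratio test, 3.0e-04 with that test blocked by experiment, and 0.0162 with DESeq2, but 0.110 in the quasi-likelihood test blocked by experiment (3.0e-04 to 0.680 over 19 alternatives). These tests called 5.65%, 6.81%, 6.94% and 0.469% of all genes tested, in that order, beside 0.623% for the main test. In a bulk sample, fewer *Foxn1*-expressing cells and less *Foxn1* RNA per cell cannot be told apart.

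**Figure D1:**
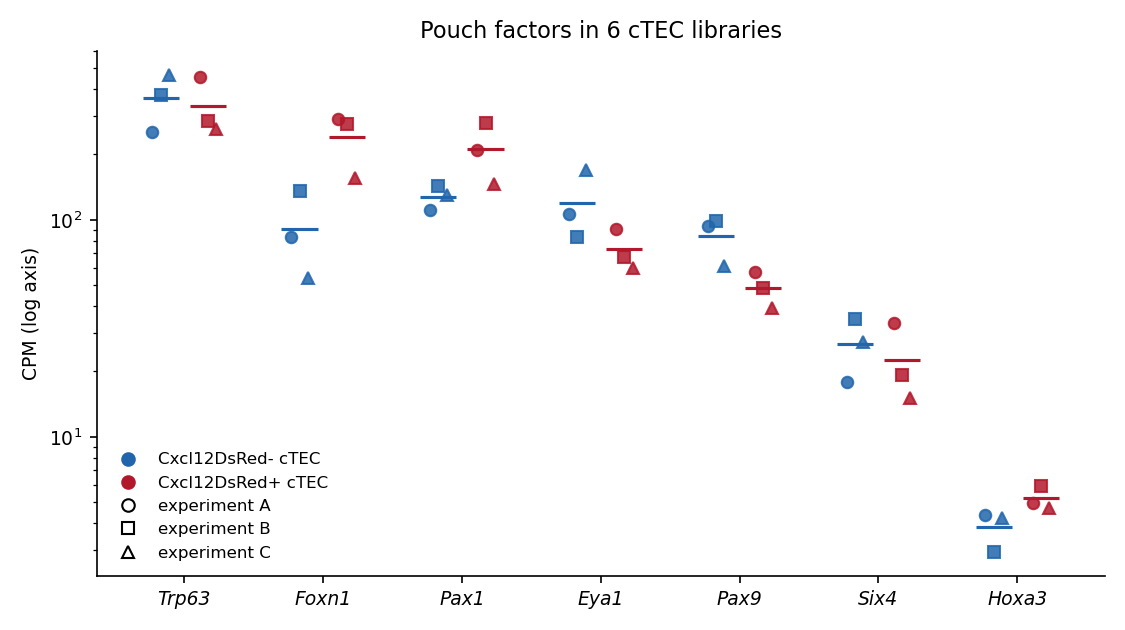
Level of 7 of the pouch factors in each of the 6 libraries, in CPM on a log axis, with 1 point per library, the colour giving the subset, the shape the experiment and the bar the mean of the 3 libraries. *Foxn1*, *Pax1* and *Hoxa3* lie lower in every Cxcl12DsRed- library, *Pax9* lies higher, the other members overlap between the subsets, and *Tbx1*, with 0 to 44 counts per library, is left out.

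Of the 7 members tested, 0 passed the quasi-likelihood test, where 0.623% of all genes did (0.173% lower and 0.449% higher in Cxcl12DsRed- cTEC), and 3 members, *Foxn1*, *Pax1* and *Pax9*, had an unadjusted p under 0.05, as had 11.8% of all genes tested. Every Cxcl12DsRed- library lay below every Cxcl12DsRed+ library for 3 members, where 9.32% of all genes did so, and above for 1 member, where 9.73% did. The median log2 fold change over the 7 members was 0.13, beside 0.020 over all genes tested. The members did not stand on the same side of 0, 4 being positive and 3 negative.

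The paired box genes stood on opposite sides. *Pax1* (ENSMUSG00000037034; chr2:147361925-147393295, plus strand) was at 110, 143 and 130 CPM in Cxcl12DsRed- cTEC and at 209, 279 and 147 CPM in Cxcl12DsRed+ cTEC of experiments A, B and C. The subsets did not overlap, but the closest libraries, 143 and 147 CPM, were almost level. The log2 fold change of *Pax1* was −0.73 (SE 0.27; adjusted p = 0.340). *Pax9* (ENSMUSG00000001497; chr12:56691767-56712822, plus strand) was at 94.0, 98.3 and 61.1 CPM in Cxcl12DsRed- cTEC and at 57.6, 48.5 and 39.2 CPM in Cxcl12DsRed+ cTEC. It was higher in 3 of 3 experiments, and here too the closest libraries, 61.1 and 57.6 CPM, lay near each other. The log2 fold change of *Pax9* was 0.80 (SE 0.27; adjusted p = 0.295). Each had an exact permutation p of 0.1 over the libraries and 0.25 within the experiments. With library sizes set by those 4 epithelial genes, the log2 fold change of *Pax9* was 0.40 (adjusted p = 0.707) and that of *Pax1* −1.04 (adjusted p = 0.252). The median over all genes moved from 0.020 to −0.40. The 4 genes were not all level between the subsets. *Epcam* (means of 197 and 89.4 CPM) and *Cdh1* (858 and 526 CPM) were higher in every Cxcl12DsRed- library, while *Krt8* and *Krt18* overlapped. Small parts of both genes are also annotated to a neighbour on the other strand, 183 exon bases (4.07%) of *Pax1* to AI646519 and 189 (3.74%) of *Pax9* to *Slc25a21*, and reads there cannot be assigned without strand.

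The partners *Eya1* and *Six4* overlapped between the subsets. *Eya1* (ENSMUSG00000025932; chr1:14168954-14310235, minus strand) was at 106, 83.1 and 169 CPM in Cxcl12DsRed- cTEC and at 91.2, 67.6 and 60.1 CPM in Cxcl12DsRed+ cTEC. It was higher in the Cxcl12DsRed- library of each experiment, by a log2 ratio of 0.21 in A, 0.30 in B and 1.49 in C. Most of the difference came from experiment C, and the log2 fold change of 0.71 (SE 0.32; adjusted p = 0.455) was 0.37 without the Cxcl12DsRed- library of that experiment and 0.22 without both of its libraries. *Six4* (ENSMUSG00000034460; chr12:73099609-73113456, minus strand) was at 17.9, 34.9 and 27.2 CPM in Cxcl12DsRed- cTEC and at 33.6, 19.3 and 15.1 CPM in Cxcl12DsRed+ cTEC. Its direction differed between experiments, lower in A and higher in B and C, and its log2 fold change was 0.24 (SE 0.43; adjusted p = 0.924). It turned to −0.02 without the Cxcl12DsRed+ library of experiment C.

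*Hoxa3* and *Tbx1* were the members with the lowest levels. *Hoxa3* (ENSMUSG00000079560; chr6:52169062-52213336, minus strand) was at 4.34, 2.95 and 4.21 CPM in Cxcl12DsRed- cTEC and at 4.93, 5.94 and 4.72 CPM in Cxcl12DsRed+ cTEC. Every Cxcl12DsRed- library was below every Cxcl12DsRed+ library, by little in A and C, and the log2 fold change was −0.44 (SE 0.66; adjusted p = 0.899). Its values are uncertain, because 5 other genes share 4.86% to 8.36% of its exon bases each, 4 of them on the opposite strand. *Tbx1* (ENSMUSG00000009097; chr16:18580979-18590671, minus strand) had 2, 44 and 6 counts in Cxcl12DsRed- cTEC and 0, 1 and 2 counts in Cxcl12DsRed+ cTEC. Of its 55 counts in all, 44 were in 1 library, the Cxcl12DsRed- library of experiment B. Over the summed counts the ratio was 20.7 with a 95% exact binomial interval of 6.71 to 104, which covers counting error only and not the spread between libraries, and the exact permutation p over the libraries was 0.2. Without the Cxcl12DsRed- library of experiment B the ratio was 4.44 (1.06 to 26.0). The 0 counts in the Cxcl12DsRed+ library of experiment A allow a level of up to 0.0567 CPM.

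*Trp63* had no direction shared by the experiments. *Trp63* (ENSMUSG00000022510; chr16:25683763-25892102, plus strand) was at 252, 378 and 467 CPM in Cxcl12DsRed- cTEC and at 454, 286 and 262 CPM in Cxcl12DsRed+ cTEC. It was lower in the Cxcl12DsRed- library of experiment A and higher in those of B and C, by log2 ratios of −0.85, 0.40 and 0.83. The log2 fold change was 0.13 (SE 0.31; adjusted p = 0.947), and it turned to −0.05 without the Cxcl12DsRed+ library of experiment C.

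**Figure D2:**
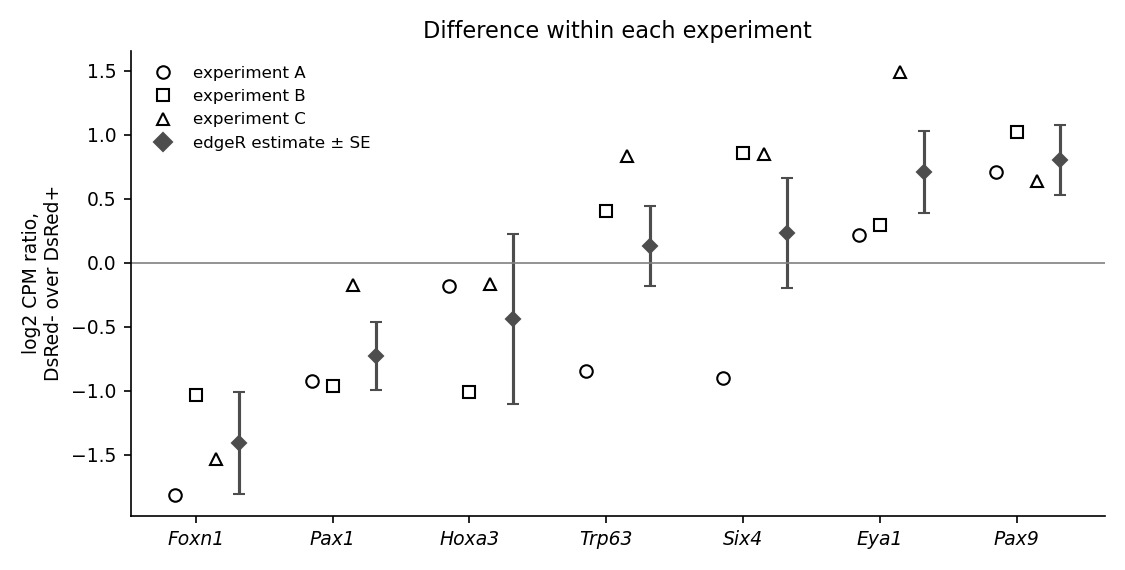
Log2 ratio of CPM, Cxcl12DsRed- over Cxcl12DsRed+ cTEC, within each experiment (open symbols) for the 7 members tested, with edgeR's log2 fold change and its SE (diamonds and bars). *Foxn1*, *Pax1* and *Hoxa3* lie below 0 and *Eya1* and *Pax9* above 0 in 3 of 3 experiments, while *Trp63* and *Six4* have experiment A below 0 and experiments B and C above it.

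Per kilobase of exon, the order of the levels was not the same in the subsets. In Cxcl12DsRed+ cTEC, *Foxn1* came first at 75.0 ± 23.2 CPM per kilobase (SD, n = 3), before *Pax1* at 47.2 ± 14.8 and *Trp63* at 39.8 ± 12.5. Neighbours among these 3 overlapped, and all 3 lay above *Pax9* at 9.58 ± 1.82 and *Eya1* at 9.35 ± 2.07, which overlapped with each other. In Cxcl12DsRed- cTEC, *Trp63* came first at 43.6 ± 12.8 CPM per kilobase, before *Pax1* at 28.5 ± 3.66, *Foxn1* at 28.2 ± 12.8, *Pax9* at 16.7 ± 4.03 and *Eya1* at 15.3 ± 5.69. Each of these 5 overlapped with its neighbour in that order. *Six4*, at 2.46 ± 0.781 and 2.09 ± 0.892 CPM per kilobase in Cxcl12DsRed- and Cxcl12DsRed+ cTEC, *Hoxa3*, at 0.637 ± 0.127 and 0.864 ± 0.109, and *Tbx1*, at 0.145 ± 0.204 and 0.00686 ± 0.00737, closed the order in both subsets, without overlap between neighbours.

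A ratio of 2 genes in the same library does not depend on the library size, apart from the 0.1 CPM added to each gene here. The 7 ratios below all share *Foxn1*, itself lower in every Cxcl12DsRed- library, so they are not independent of each other. How many of all genes would have such a ratio to *Foxn1* was not counted. The ratio of *Foxn1* to *Pax9* (CPM, each with 0.1 added) was 0.884, 1.37 and 0.881 in Cxcl12DsRed- cTEC of experiments A, B and C, and 5.05, 5.68 and 3.96 in Cxcl12DsRed+ cTEC. It was lower in every Cxcl12DsRed- library, and 4.74-fold higher in Cxcl12DsRed+ cTEC on the mean of the log ratios. The ratio of *Foxn1* to *Trp63* was 0.329, 0.358 and 0.115 in Cxcl12DsRed- cTEC and 0.641, 0.967 and 0.594 in Cxcl12DsRed+ cTEC, a difference of −1.59 in the mean log2 ratio. The log2 ratio of *Foxn1* differed by −0.77 relative to *Pax1*, −1.72 to *Six4* and −2.12 to *Eya1*, without overlap between the subsets, and by −1.01 relative to *Hoxa3*, with overlap. The ratio to *Pax1* was almost level in experiment B, at 0.944 in Cxcl12DsRed- cTEC and 0.989 in Cxcl12DsRed+ cTEC. Relative to *Tbx1* the difference was −3.07 without overlap, but *Tbx1* had 0 to 6 counts in 5 of the 6 libraries, so its size depends on the value added, and it was −1.91 with 1 CPM added and −2.43 without the Cxcl12DsRed- library of experiment B. The exact two-sided permutation p was 0.1 for 6 of the 7 ratios (0.117 adjusted over the 7) and 0.2 for *Hoxa3* (0.2 adjusted), and 0.25 within the experiments for each. The design can give no smaller values than 0.1 and 0.25. The ratio of *Pax1* to *Pax9*, chosen after the values were seen and given with no test, was 1.18, 1.46 and 2.13 in Cxcl12DsRed- cTEC and 3.63, 5.75 and 3.74 in Cxcl12DsRed+ cTEC.

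**Figure D3:**
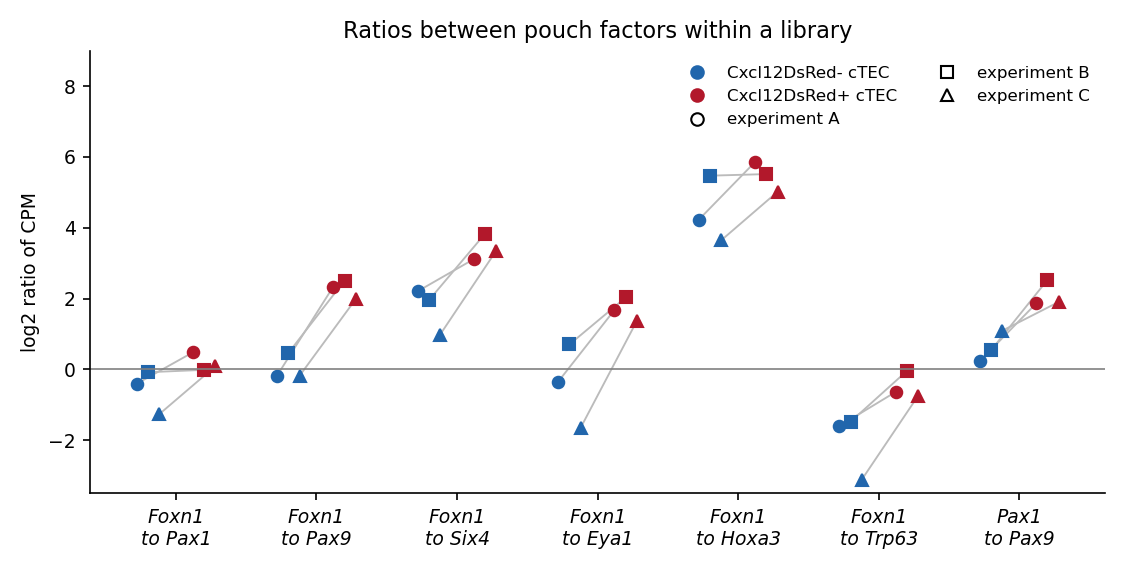
Log2 ratio of CPM between pairs of members within each library, with the subset by colour, the experiment by shape and grey lines joining the libraries of 1 experiment. *Foxn1* relative to *Pax9*, *Six4*, *Eya1* and *Trp63* is higher in every Cxcl12DsRed+ library, by little relative to *Pax1*, and the subsets overlap relative to *Hoxa3*.

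The genes whose pattern over the 6 libraries lay closest to that of each member were found by the root mean square difference of log2 CPM, each centred on its mean, among 9490 genes with a mean of at least 10 CPM. For *Foxn1* they were *Hes6* (a difference of 0.132), *Snhg11* (0.244) and *Tmem131l* (0.257). *Hes6*, a basic helix-loop-helix regulator, averaged 82.8 CPM in Cxcl12DsRed- and 195 CPM in Cxcl12DsRed+ cTEC. For *Pax1* they were *Mtss1l* (0.141), *Ssbp3* (0.145) and *Tbc1d7* (0.151), and for *Pax9* they were *Ap1m2* (0.0612), *Umad1* (0.0914) and *Ccn1* (0.0987). *Ap1m2*, an epithelial clathrin adaptor subunit, averaged 93.6 CPM in Cxcl12DsRed- and 58.0 CPM in Cxcl12DsRed+ cTEC, close to *Pax9* in level too. The nearest were *Gprc5c* (0.0877) and *Slc39a3* (0.130) for *Six4*, *Tprkb*, *Ndrg2* and *Cul1* for *Eya1* (0.110 to 0.136), *Ift20*, *Ado* and *Pebp1* for *Hoxa3* (0.0610 to 0.0687), and *Gdap2*, *Max* and *Tinf2* for *Trp63* (0.0709 to 0.103). These are descriptions over 6 libraries that share the same 2 subsets.

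Beyond the 8 members, 42 other genes of the pouch and of thymic epithelial specification were looked up. Of these, 32 were tested, 1 passed as higher, 0 as lower and 31 did not pass. Over all genes tested, 0.449% passed as higher and 0.173% as lower. The median log2 fold change of the list was 0.22 beside 0.020 over all genes. The gene that passed was *Foxa1*, a forkhead factor of foregut endoderm, at 20.6, 13.5 and 6.69 CPM in Cxcl12DsRed- cTEC and at 0.0945, 0.0626 and 0.0515 CPM in Cxcl12DsRed+ cTEC. Its log2 fold change was 7.54 (SE 0.90; adjusted p = 0.0374), and the adjusted p was 0.0735 when the same test was blocked by experiment. The tuft cell marker sum, 4834, 1337 and 862 CPM in the same Cxcl12DsRed- libraries, had the same order over experiments as *Foxa1*. So had the mTEC marker sum, at 11637, 11305 and 7222 CPM. The sum of *Epcam*, *Krt8*, *Krt18* and *Cdh1*, at 8280, 6973 and 4619 CPM, also had that order, while the fibroblast sum did not. In Cxcl12DsRed+ cTEC of A, B and C, where *Foxa1* was at 0.0515 to 0.0945 CPM, these sums did not all fall with it. The mTEC sum was 12375, 13405 and 3194 CPM there, and the epithelial sum 7995, 8737 and 5105 CPM. The tuft cell sum was 94.3, 94.5 and 153 CPM, and the fibroblast sum 1862, 2010 and 1223 CPM. A shared order over 3 libraries does not identify a source, and the source of the *Foxa1* RNA was not tested. The adjusted p of *Foxa1* was 0.0834 to 0.386 when a library or an experiment was left out, apart from the Cxcl12DsRed- library of experiment C, without which it still passed.

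Other genes of that list with an unadjusted p under 0.05 are named after their values were seen. *Bmp4*, a ligand of the ventral pouch, was at 26.7, 50.6 and 25.3 CPM in Cxcl12DsRed- cTEC and at 14.7, 5.07 and 6.11 CPM in Cxcl12DsRed+ cTEC (log2 fold change 1.99, adjusted p = 0.183). *Ripply3*, a repressor that binds T-box proteins, was at 4.18, 6.42 and 3.96 CPM in Cxcl12DsRed- cTEC and at 15.2, 17.4 and 29.1 CPM in Cxcl12DsRed+ cTEC (−2.08, adjusted p = 0.128). Neither overlapped between the subsets, and neither passed the threshold. *Cyp26b1*, which breaks down retinoic acid, had 1, 1 and 0 counts in Cxcl12DsRed- cTEC and 208, 967 and 333 counts in Cxcl12DsRed+ cTEC, with an adjusted p of 0.0502 that fell under 0.05 in 8 of 19 alternatives (2.6e-09 to 0.403). The ratio of its summed counts, Cxcl12DsRed+ over Cxcl12DsRed-, was 631 with a 95% exact binomial interval of 174 to 5213 for counting error only. *Foxa2* had 235, 44 and 11 counts in Cxcl12DsRed- cTEC and 1, 0 and 0 in Cxcl12DsRed+ cTEC (adjusted p = 0.127), and *Tbx3* was at 0.208, 0.487 and 0.812 CPM and at 3.27, 2.77 and 32.6 CPM (adjusted p = 0.189). The last *Tbx3* value is that of the Cxcl12DsRed+ library with the high endothelial sum. The log2 fold change of *Tbx3* was −5.21 to −2.61 when a library or an experiment was left out. *Gcm2*, the defining factor of parathyroid, and *Nkx2-1*, that of thyroid, had 0 counts in all 6 libraries, which allows up to 0.0567 to 0.0913 CPM per library. Other markers of these organs were present. Of 5 parathyroid markers 4 were tested, 3 with a positive and 1 with a negative log2 fold change, and 0 passed. Among them, *Chga* was at 43.3, 64.1 and 1.18 CPM in Cxcl12DsRed- cTEC and at 0.0567 to 0.209 CPM in Cxcl12DsRed+ cTEC. Of 8 thyroid and ultimobranchial markers 3 were tested, 1 positive and 2 negative, and 0 passed. The share that passed over all genes tested was 0.623%.

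The families of the members held 46 genes, of which 19 were tested and 0 passed, where 0.623% of all genes tested did. Their median log2 fold change was 0.088. Of the 46, 9 had 0 counts in all libraries and 21, these included, stayed under 1 CPM in every library. Among the 4 with the smallest p were *Tbx3*, already given, *Tbx15* and *Eya3*. *Tbx15* had 61, 107 and 26 counts in Cxcl12DsRed- cTEC and 0, 11 and 0 counts in Cxcl12DsRed+ cTEC (adjusted p = 0.444). *Eya3*, a homologue of *Eya1*, averaged 5.34 ± 2.08 CPM in Cxcl12DsRed- cTEC and 12.1 ± 4.39 CPM in Cxcl12DsRed+ cTEC, with overlap between the subsets (log2 fold change −1.18, adjusted p = 0.541).

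Genes of basal epithelium that depend on p63 were read beside *Trp63*. All 24 were tested and 0 passed, where 0.623% of all genes tested did. A positive log2 fold change was found for 16 and a negative one for 8, and the median was 0.26. Among the 4 with the smallest p were *Tfap2c*, *Cldn1* and *Fras1*. *Tfap2c*, coding for the factor AP-2 gamma, averaged 11.0 ± 10.8 and 0.735 ± 0.895 CPM (adjusted p = 0.498), *Cldn1*, a tight junction claudin, 196 ± 58.6 and 120 ± 45.9 CPM (adjusted p = 0.514), and *Fras1*, a basement membrane protein gene, 45.9 ± 6.09 and 25.9 ± 14.6 CPM (adjusted p = 0.541). The sum of the 24 was 7965, 7731 and 7474 CPM in Cxcl12DsRed- cTEC and 9986, 7694 and 3180 CPM in Cxcl12DsRed+ cTEC, so that it was steady in the former and spread widely in the latter, lowest in the library with the high endothelial sum.

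**Figure D4:**
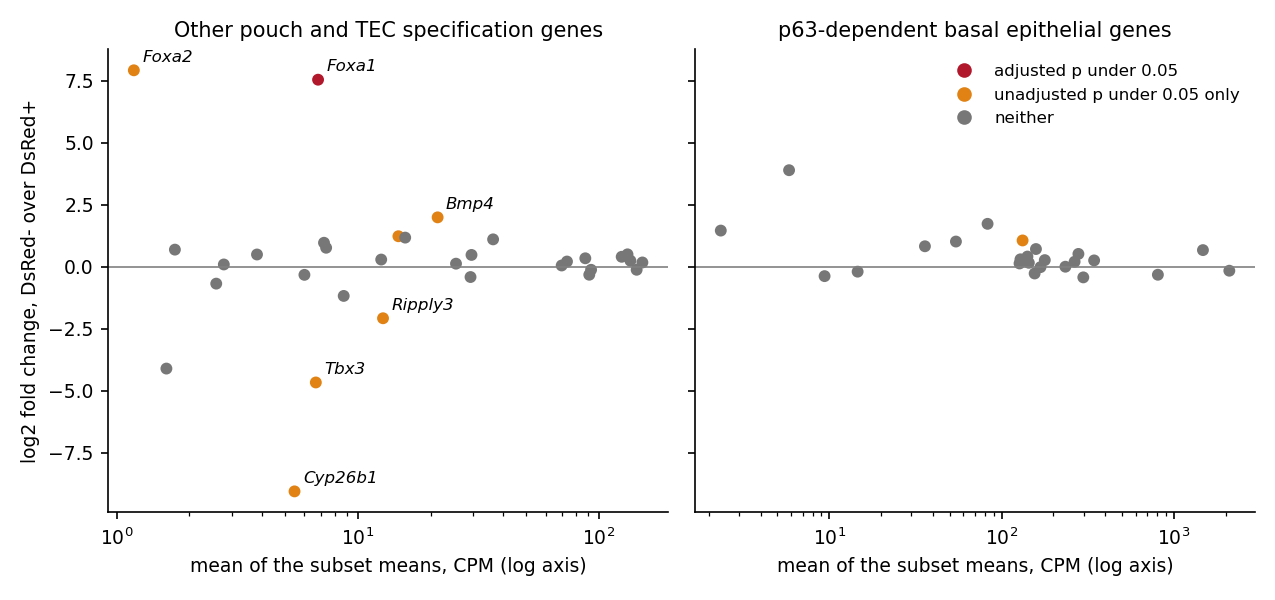
Log2 fold change, Cxcl12DsRed- over Cxcl12DsRed+ cTEC, against the mean of the 2 subset means in CPM (log axis), for the tested genes of the pouch list (left, 32 genes) and of the p63 list (right, 24 genes), coloured by edgeR's quasi-likelihood test. *Foxa1* is the single gene with an adjusted p under 0.05, and the genes of both lists lie on either side of 0.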

How the data were processed

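RNA was measured in 3 libraries of Cxcl12DsRed- cTEC and 3 of Cxcl12DsRed+ cTEC, prepared by the SMARTer Ultra Low Input method, which does not mark strand. Per the labels and the study's methods, the authors used Trimmomatic 0.36 for trimming, STAR 2.7.3a for alignment to mm10 and HTSeq for counting, and the deposited values are raw counts per gene. For the strand setting and the annotation release, nothing is given in the sources used here. Of 39277 entries, 39179 were genes, 92 spike-ins at 0, 5 summaries and 1 DsRed, and only genes entered library sizes and tests. Relative to counts in genes, reads in no gene were 5.87% to 9.35%, ambiguous reads 1.21% to 1.38% and reads with several alignments 5.61% to 9.07%. Symbols and coordinates came from GENCODE M21 (GRCm38), with 37607 of the IDs matched, and upstream sequences from RefSeq (GRCm38.p6).

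Counts were tested in edgeR 4.0.16 (R 4.3.3) with filterByExpr (minimum count 10), TMM, the quasi-likelihood test (prior count 0.125, SE from the F statistic) and Benjamini-Hochberg adjustment at 0.05, as the study names edgeR at this threshold and no covariate. The test was tested on simulated data. Alternatives were DESeq2 1.42.0, limma 3.58.1 with voom, the likelihood ratio test, other scalings and filters, a block for the experiment, and fewer libraries. Exact permutation tests used scipy 1.17.1. Experiments A, B and C, named in the labels of both subsets, were taken as pairs. Deviations from subset means correlated at 0.0106, 0.0778 and 0.0716 within pairs and at −0.0948 to 0.00374 otherwise. No 2 libraries were duplicates (chi-square per degree of freedom 155 to 667). The study calls the libraries biological replicates in one place and a technical triplicate in another, so a p-value here covers only the spread among the libraries. The members, lists and tests were chosen with earlier results of these data known. All 8 members were named, with the genes called, or else the 4 smallest p, of each list, and the 3 nearest genes of each member averaging at least 1 CPM. Some genes selected by this rule are not reported here.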

Additional observations from a re-analysis of the deposited data

How the results depend on the processing

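Over 19 alternatives the log2 fold change of *Foxn1* stayed negative (−1.82 to −1.15, adjusted p 3.0e-04 to 0.680), and *Foxn1* passed in 3 of them, at −1.41 (adjusted p = 0.0318) with the likelihood ratio test, −1.46 (3.0e-04) with that test and the replicate block, and −1.40 (0.0162) with DESeq2, so that 1 member was called in each of these and 0 in the others. With the block in the quasi-likelihood test it was −1.46 (adjusted p = 0.110). *Pax1* stayed negative (−1.04 to −0.48) and so did *Hoxa3* (−0.82 to −0.17), while *Pax9* (0.40 to 0.98) and *Eya1* (0.22 to 0.96) stayed positive, none of them called. *Six4* reversed to −0.078 with epithelial scaling, −0.0087 without the Cxcl12DsRed- library of experiment B, −0.021 without the Cxcl12DsRed+ library of C, −0.10 without experiment B and −0.039 without C, and was at most 0.81 (without experiment A). *Trp63* reversed to −0.19 with epithelial scaling, −0.090 without the Cxcl12DsRed- library of C, −0.048 without the Cxcl12DsRed+ library of C and −0.27 without experiment C, and was at most 0.59 (without experiment A). Epithelial scaling set the median of all genes at −0.40, and both genes stood above that median there. The cause of these reversals was not tested.

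The pouch list count of 1 became 6 with the likelihood ratio test, 0 with the replicate block in the quasi-likelihood test, 5 with the block in the likelihood ratio test, 6 with DESeq2, 0 with voom, and 2 with RLE, library totals, epithelial scaling, no filter or a mean of at least 1 CPM. Leaving out libraries gave 0 to 1. The paralogue count of 0 became 1 with the likelihood ratio test, with and without the block. The p63 count of 0 became 1 with the likelihood ratio test, 2 with the block in it and 1 with DESeq2. The cause of these moves was not tested. All genes called numbered 97 in the main test, 880 with the likelihood ratio test, 1060 with the block in it, 73 with the block in the quasi-likelihood test, 1081 with DESeq2, 4 with voom, 151 with epithelial scaling and 168 with no filter, and 0 to 139 when a library was left out. The ratios of *Foxn1* to the other members kept their direction within pairs, with 1 CPM added and without each library, though that to *Tbx1* went from −3.07 to −1.91 with 1 CPM added. The *Tbx1* ratio was 4.44 to 44.9 when a library was left out. Of the other genes named from the lists, none changed direction. Low counts kept *Tbx1* out of the main test, and 3 libraries a subset limit every exact p to 0.1.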
